A study of Mus musculus with 50 samples.

Results

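This account follows 5 mouse genes, the chemokine genes Ccl19, Ccl21a, Ccl21b and Ccl21d and their receptor gene Ccr7, across 5 kinds of lymph node. They were taken by gene name from a table of 56600 gene entries, and all 5 passed the filter on low counts, which kept 18077 genes. The nodes drained the duodenum, jejunum, ileum or colon, or were inguinal nodes, which drain skin and not the gut. Nodes came from the offspring of C57BL/6J dams that had been fed a vitamin A deficient chow, or a matched chow with vitamin A at 20 IU/g, from 3 weeks before mating. The offspring came from the second and the third litters and were studied at postnatal day 56. There were 5 libraries for each node and diet, 50 in all, each from whole-node RNA. On the sufficient diet, libraries numbered 1 and 2 came from females and those numbered 3 to 5 from males, while every deficient mouse was female. No litter received both diets, so litter and dam cannot be told apart from diet. Nodes are not tied to single mice in the labels, and 1 mouse may have given several. The p-values therefore describe the spread among these libraries, part of which may be technical.

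CCL19 and CCL21 are the ligands of CCR7 and draw naive T cells and mature dendritic cells into the T zone of a lymph node. Both are made by fibroblastic reticular cells of the T zone, and CCL21 is also made by lymphatic endothelium, where it guides dendritic cells into lymphatic vessels. The mouse genome holds several copies of Ccl21. Ccl21a gives the serine form of the protein, known as the form of lymphoid tissue, and the other copies give the leucine form, known from lymphatic vessels outside lymphoid tissue. In whole-node RNA, fewer cells of a type and less RNA per cell cannot be told apart.

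The sequences below show how little separates the copies, which bears on every value of a single Ccl21 copy. In the GENCODE M21 annotation of GRCm38, Ccl21a lies at chr4:42772860-42773993 on the minus strand, Ccl21b at chr4:42255767-42256432 on the plus strand and Ccl21d at chr4:41903610-41904743 on the plus strand. Ccl19 lies at chr4:42754525-42756577 and Ccr7 at chr11:99144196-99155077, both on the minus strand. The submitters' processing notes name the builds GRCm39 and mm10 without their roles, so these positions belong to the annotation used here and not to the count table. Of 402 coding bases, Ccl21b and Ccl21d each share 400 with Ccl21a. Counted from the A of the start codon, the differences are T84A in exon 2 and C194T in exon 3, with the base of Ccl21a first. The 41 coding bases around the first difference, from exon 2 and shown 5′ to 3′ on the coding strand with the differing base in capitals, are as follows.
Ccl21a, coding bases 68 to 108: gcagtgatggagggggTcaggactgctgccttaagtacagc
Ccl21b, coding bases 68 to 108: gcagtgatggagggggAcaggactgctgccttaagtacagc
Ccl21d, coding bases 68 to 108: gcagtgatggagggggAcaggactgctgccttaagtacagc

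The second difference lies in exon 3, shown in the same way.
Ccl21a, coding bases 189 to 229: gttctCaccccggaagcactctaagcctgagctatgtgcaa
Ccl21b, coding bases 189 to 229: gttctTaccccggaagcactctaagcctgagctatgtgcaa
Ccl21d, coding bases 189 to 229: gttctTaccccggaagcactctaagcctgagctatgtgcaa

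The coding sequences of Ccl21b, Ccl21d and a further pair of copies in the table, Ccl21e and Ccl21f, were identical. The annotated transcripts of Ccl21b and Ccl21e were identical throughout, and their estimated counts were equal, to within 1e-06, in 50 of 50 libraries. Over 870 transcript bases, Ccl21a and Ccl21d differed at 6, of which 4 lay outside the coding sequence. In the RefSeq promoter table on GRCm38.p6, an aligned window of 249 bases over the starts of Ccl21a and Ccl21d differed at 1. The annotated transcripts of Ccl21b and Ccl21e held 402 bases, the coding length alone, beside 870 for Ccl21a and Ccl21d and 837 for Ccl21f. Reads outside the coding sequence therefore match no Ccl21b transcript of the annotation used here. Reads that miss the differing bases cannot be placed between Ccl21a and Ccl21d, or, within the coding sequence, between Ccl21a and Ccl21b. For this reason Ccl21a, Ccl21b and Ccl21d were also summed, and the sum was tested in the same way.

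The 50 libraries held 5335369 to 8904722 estimated counts, with a median of 7640371. T cell and stromal genes were present in every library: Cd3e was at 66.6 CPM (counts scaled to library size) or more and the reticular gene Pdpn at 5.895 or more. Of the 21 tested genes of a pancreas acinar list, 19 were higher in gut-draining than in inguinal nodes on the sufficient diet. That list took over 1% of counts in 6 libraries, up to 24.7% in sufficient duodenal 5 and 22.7% in deficient duodenal 4. The RNA Gm19220 took under 3% of counts in 10 libraries, all deficient. Comparisons were run again without each of these sets.

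Levels below are TMM-normalised CPM, a scale that allows a gene to be compared between libraries, and not different genes with each other, since counts were not divided by length. In each list of 5 values, libraries stand in the order of their numbers, 1 to 5.

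Ccl19 was highest in duodenal and inguinal nodes and lowest in ileal nodes on both diets. In sufficient mice, Ccl19 stood at 149, 153, 335, 245 and 215 CPM in duodenal nodes, a mean of 219.7 ± 76.4 (SD, n = 5). Sufficient inguinal nodes held 179.8, 228, 199.5, 233 and 238 CPM, a mean of 216 ± 24.9 (SD, n = 5). Duodenal nodes thus had about the same mean as inguinal nodes with a wider spread. Jejunal nodes of sufficient mice held 145, 123, 219.8, 248 and 205 CPM of Ccl19, and colonic nodes 121, 164, 177, 196 and 142. The ileal values of sufficient mice were 123, 84.9, 195, 143 and 149 CPM, a mean of 139 ± 40.0 (SD, n = 5). The order of the means was therefore duodenal, inguinal, jejunal, colonic and ileal.

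The same order held for Ccl19 in deficient mice. Duodenal nodes held 202, 174, 162, 275 and 229 CPM, a mean of 209 ± 45.2 (SD, n = 5), and ileal nodes 124, 111, 141, 144 and 114, a mean of 127 ± 15.1 (SD, n = 5). Every deficient duodenal library was above every deficient ileal library. Deficient inguinal nodes held 242, 214, 186, 195 and 192 CPM, jejunal nodes 196, 161, 173, 221 and 156, and colonic nodes 139, 143, 173, 150.1 and 141. Neighbours in the order of means did not differ beyond their spread, the smallest adjusted p between neighbours being 0.265 in edgeR's quasi-likelihood test.

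For Ccl21, the 3 summed copies were lowest in inguinal nodes on the sufficient diet and lowest in ileal nodes on the deficient diet. Sufficient jejunal nodes held 1521, 1523, 2072, 2202 and 1878 CPM, a mean of 1839 ± 312 (SD, n = 5), and duodenal nodes 1504, 1597, 2087, 2376 and 1609. Sufficient inguinal nodes held 994, 1277, 1195, 1138 and 1169 CPM, a mean of 1155 ± 104 (SD, n = 5). All 5 inguinal values lay below all jejunal and duodenal values. Colonic nodes of sufficient mice held 1106, 1492, 1733, 1577 and 1938 CPM, and ileal nodes 1028, 1227, 1728, 1482 and 1612. Both of these overlapped the inguinal range.

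Deficient duodenal nodes held 1722, 1244, 1322, 1784 and 1462 CPM of summed Ccl21, a mean of 1507 ± 239 (SD, n = 5). Deficient ileal nodes held 1119, 940.4, 1307, 938 and 869, a mean of 1035 ± 178 (SD, n = 5). Deficient inguinal nodes held 1378, 1085, 1407, 1113 and 1064, a mean of 1209 ± 168 (SD, n = 5). Here the inguinal libraries lay inside the range of the gut-draining ones. Jejunal nodes held 1441, 1193, 1440.0, 1571 and 1061 CPM and colonic nodes 1442, 1229, 1663, 1151 and 1057. No pair of neighbours in the order of means differed beyond its spread (smallest adjusted p = 0.178, edgeR).

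Ccr7, the receptor gene carried by naive T cells, B cells and mature dendritic cells, ran from duodenal nodes at the top to ileal nodes at the bottom on both diets. Sufficient duodenal nodes held 281, 287, 427, 312 and 338 CPM, a mean of 329 ± 59.3 (SD, n = 5). Sufficient ileal nodes held 222, 175, 274, 222 and 248 CPM, a mean of 228 ± 36.7 (SD, n = 5). Every duodenal library exceeded every ileal library. Between them stood the jejunal nodes at 252, 228, 303, 336 and 299 CPM, the colonic nodes at 206, 232, 285, 302 and 261, and the inguinal nodes at 236, 259.7, 247, 279.7 and 262.

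In deficient mice the duodenal nodes held 332, 264, 240.0, 339 and 261 CPM of Ccr7, a mean of 287 ± 45.1 (SD, n = 5). The ileal nodes held 231, 182, 207, 184 and 154 CPM, a mean of 191 ± 28.7 (SD, n = 5). Again the ranges did not overlap. Jejunal nodes held 294, 231, 215, 284 and 199.8 CPM, inguinal nodes 269, 197, 205, 228 and 195, and colonic nodes 207, 201, 219, 199 and 188. Neighbours were again indistinguishable by the spread of their libraries (smallest adjusted p = 0.29, edgeR).

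**Figure D1:**
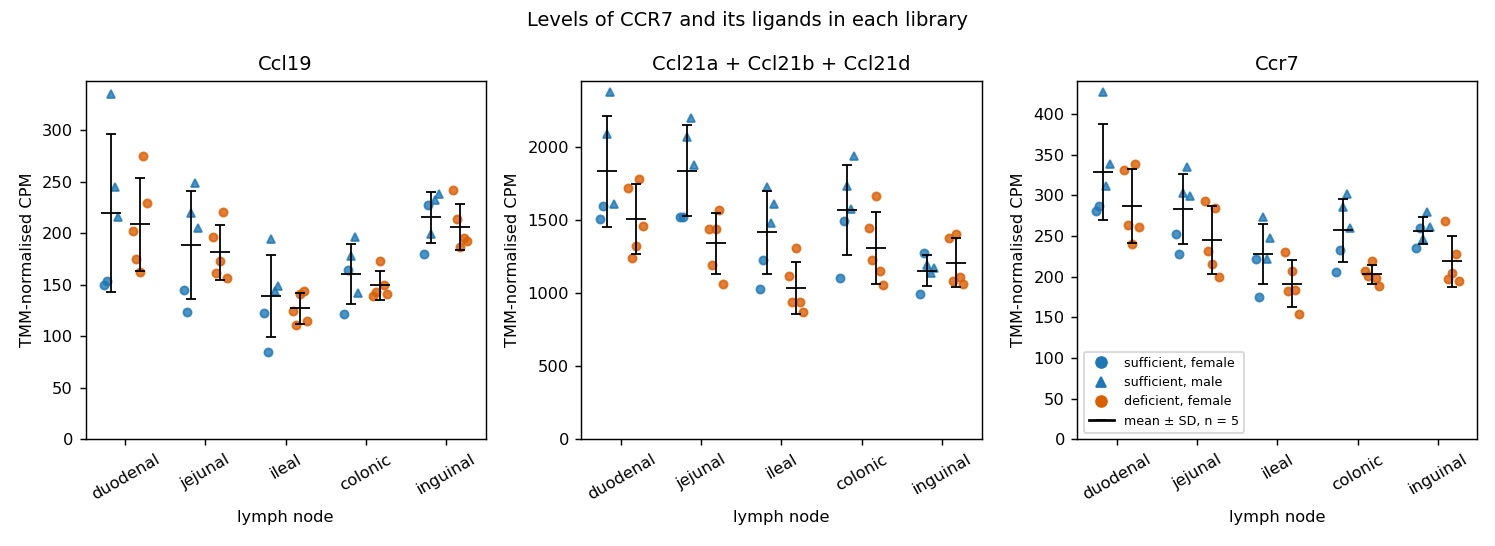
TMM-normalised CPM (y axis) of Ccl19, the 3 summed Ccl21 copies and Ccr7 in each lymph node (x axis), with 1 point per library, colour for diet, shape for sex and black bars for mean ± SD of 5. Ccl19 is lowest in ileal nodes on both diets, Ccr7 falls from duodenal to ileal nodes, and sufficient males (triangles) sit above sufficient females in most gut-draining nodes.

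The first comparison asked how the nodes at the top and the bottom of the small intestine differed. Duodenal nodes had more Ccl19 and more Ccr7 than ileal nodes on both diets. Ccl19 was 1.57-fold higher on the sufficient diet (log2 fold change 0.65 ± 0.14 SE, adjusted p = 0.00199, edgeR) and 1.64-fold higher on the deficient diet (0.72 ± 0.14, adjusted p = 0.00076). Ccr7 was 1.44-fold higher on the sufficient diet (0.53 ± 0.11, adjusted p = 0.00104) and 1.5-fold higher on the deficient diet (0.59 ± 0.11, adjusted p = 0.000322). The Ccl21 sum was 1.46-fold higher in deficient mice (0.54 ± 0.13, adjusted p = 0.0058), a call lost without deficient libraries numbered 4 (0.43, adjusted p = 0.125). In sufficient mice the Ccl21 sum differed by 0.38 ± 0.13 on the log2 scale (adjusted p = 0.0621), and it passed the threshold under several other settings, among them DESeq2 (0.39, adjusted p = 0.0345).

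Counted by gene, 2 of the 5 members were higher in duodenal nodes on the sufficient diet, against 3.1% of all genes tested, and 0 were lower, against 5.12%. On the deficient diet 3 members were higher, against 2.96% of all genes, and 0 lower, against 2.73%. The additional member was Ccl21a, at 0.54 on the log2 scale. Of 14 tested T cell genes, 10 were higher in sufficient duodenal nodes, led by the CD8 chain gene Cd8a (0.65 ± 0.11), and in deficient mice 0 of 14 passed in either direction. T cell genes had a median log2 difference of 0.38 on the sufficient diet and 0.11 on the deficient diet, beside 0.01 for all genes on each diet. Their summed share of counts was 0.130 to 0.254% in sufficient duodenal nodes and 0.167 to 0.219% in sufficient ileal nodes. The 0.130% belonged to duodenal number 5, where pancreas genes took 24.7% of counts. The other sufficient duodenal libraries held 0.242 to 0.254%.

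Genes of mature migratory dendritic cells, the other main carriers of Ccr7, were higher in duodenal nodes in 4 of 13 cases on the sufficient diet and in 9 of 13 on the deficient diet, with 0 lower on either. Ccl22, a chemokine of those cells, was higher by 0.73 ± 0.15 on the log2 scale in sufficient and by 2.11 ± 0.15 in deficient mice. Fscn1, their actin-bundling gene, was higher by 1.40 ± 0.16 in deficient mice. Of 10 genes of high endothelial venules, the vessels through which lymphocytes enter a node, 6 were higher in sufficient and 3 in deficient duodenal nodes, and Glycam1 led the former at 1.07 ± 0.24. Lymphatic endothelial genes went the other way, 8 of 11 lower in sufficient and 7 of 11 lower in deficient duodenal nodes. Members that stood in other lists were left out of those counts.

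All 21 tested pancreas genes were higher in duodenal than in ileal nodes on each diet. Ccl19 kept its call without the 6 libraries over 1% pancreas, at 0.77 on the log2 scale (adjusted p = 0.00183) in sufficient and 0.75 (adjusted p = 0.013) in deficient mice. Ccr7 did too, at 0.56 (adjusted p = 0.00524) and 0.62 (adjusted p = 0.0127). With female mice only, which leaves 2 sufficient libraries a node, the sufficient values were 0.54 for Ccl19 (adjusted p = 0.311) and 0.51 for Ccr7 (adjusted p = 0.263). The part that dendritic cell, T cell and vessel genes have in the result was not tested.

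The second comparison set the 4 gut-draining nodes against inguinal nodes, and there the ligands differed in opposite directions. On the sufficient diet gut-draining nodes had less Ccl19 (log2 fold change -0.35 ± 0.11 SE, adjusted p = 0.0238, edgeR), while the Ccl21 sum was 1.41-fold higher (0.50 ± 0.11, adjusted p = 0.000676). The means of Ccl19 were 177 CPM over 20 gut-draining libraries and 216 over 5 inguinal ones, and those of the Ccl21 sum 1665 and 1155. Duodenal nodes did not share the lower Ccl19. Their means were 219.7 CPM on the sufficient and 209 on the deficient diet, beside 216 and 206 in inguinal nodes (adjusted p = 0.944 and 0.981, edgeR). The call for Ccl19 was lost without sufficient libraries numbered 1 (-0.33, adjusted p = 0.0963), 2 (-0.22, adjusted p = 0.217) or 5 (-0.34, adjusted p = 0.0687). The call for the Ccl21 sum held without any 1 number of either diet, at 0.43 to 0.59, and was not made with female mice only (0.27, adjusted p = 0.423). Ccr7 differed by 0.07 ± 0.09 (adjusted p = 0.644), an interval of -0.10 to 0.25 at 2 standard errors.

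In deficient mice the difference of the Ccl21 sum was 0.09 ± 0.10 on the log2 scale (adjusted p = 0.805), from -0.12 to 0.30 at 2 standard errors. Ccl19 had nearly the sufficient value, at -0.33 ± 0.11, and narrowly missed the threshold (adjusted p = 0.0668). It passed with library number as a replicate block (-0.34, adjusted p = 0.0449) and in DESeq2 (-0.33, adjusted p = 0.0484). Ccr7 differed by 0.06 ± 0.09 (adjusted p = 0.847). The gut-draining to inguinal difference of the Ccl21 sum was smaller by 0.41 ± 0.15 on the log2 scale in deficient than in sufficient mice, which did not pass the test of the interaction (adjusted p = 0.221; 0.0729 with the replicate block). Deficient mice were all female, and the sex term was shared by all nodes. In single-node fits males exceeded females by 0.38 to 0.50 in gut-draining and by 0.0225 in inguinal nodes. With female mice only, the sufficient difference was 0.27. The part of sex in the smaller difference was not tested.

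On the sufficient diet 1 member, Ccl21a, was higher in gut-draining nodes, against 9.85% of all genes, and 3 were lower (Ccl19, Ccl21b and Ccl21d), against 7.3%. On the deficient diet 0 members were higher, against 3.79%, and 2 were lower (Ccl21b and Ccl21d), against 1.98%. All 11 lymphatic endothelial genes other than Ccl21a were higher in gut-draining nodes of sufficient mice and 9 of 11 in deficient mice, with medians of 1.24 and 1.16 on the log2 scale beside -0.01 for all genes. Lyve1, a hyaluronan receptor of lymphatic vessels, was higher by 1.42 ± 0.13 in sufficient and by 1.48 ± 0.13 in deficient mice. The summed share of this list was 0.0758 to 0.316% in gut-draining and 0.0428 to 0.0552% in inguinal nodes on the sufficient diet, and 0.0659 to 0.239% and 0.0344 to 0.0610% on the deficient diet. None of its genes was at 0 in any group. Its part in the level of Ccl21 was not tested.

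T zone reticular genes were divided on both diets: 6 of 18 were higher and 5 lower in gut-draining nodes. Grem1, which marks reticular cells of the T zone and medulla, was higher by 1.19 ± 0.09 on the log2 scale in sufficient and by 1.35 ± 0.09 in deficient mice, and Tnfsf13b, which encodes the B cell factor BAFF, was lower by 1.11 ± 0.17 and by 1.60 ± 0.16 in the same order. T cell genes were lower in gut-draining nodes in 10 of 14 cases on the sufficient diet, led by Cd2 (-0.52 ± 0.06), and 0 of 14 passed in either direction on the deficient diet. B cell genes were lower in 11 of 12 and 9 of 12 cases. High endothelial genes were lower in 4 of 10 and 5 of 10 cases, with Chst4, a sulfotransferase that completes the ligand of L-selectin, at -0.88 ± 0.17 and -1.02 ± 0.16. Among the other chemokines, Cxcl13, which draws B cells into follicles, was lower by 1.16 ± 0.10 and by 1.75 ± 0.10, and Ccl8 by 4.5 ± 0.24 and by 3.24 ± 0.22. Ccl5 was also lower on both diets (-0.57 ± 0.13 and -0.80 ± 0.12), while Ccl2 was higher on the deficient diet (1.40 ± 0.25).

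Genes that limit or process CCR7 ligands were few. Ackr4, the scavenger receptor that removes CCL19 and CCL21, was higher in gut-draining nodes of sufficient mice (0.58 ± 0.21, adjusted p = 0.0463), with means of 8.43 CPM in inguinal nodes, 10.04 in duodenal, 11.9 in jejunal, 14.3 in colonic and 15.5 in ileal nodes. In deficient mice Ackr4 differed by 0.17 ± 0.20 (adjusted p = 0.803), with means of 8.26 CPM in inguinal and 8.18 to 10.4 in gut-draining nodes. Plat, the tissue activator of plasmin, which can cleave CCL21, was higher on both diets (1.28 ± 0.38 and 2.46 ± 0.38). Of 16 genes of CCR7 signalling, 7 were lower in gut-draining nodes of sufficient mice, led by the receptor kinase gene Grk6 (-0.32 ± 0.06), and 0 passed in deficient mice. Of 13 lymphotoxin and noncanonical NF-kB genes, which act upstream of stromal chemokines, 1 was higher and 4 were lower on the sufficient diet, with Lta at -0.65 ± 0.10 and Ltb at -0.30 ± 0.07, and 0 passed on the deficient diet.

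**Figure D2:**
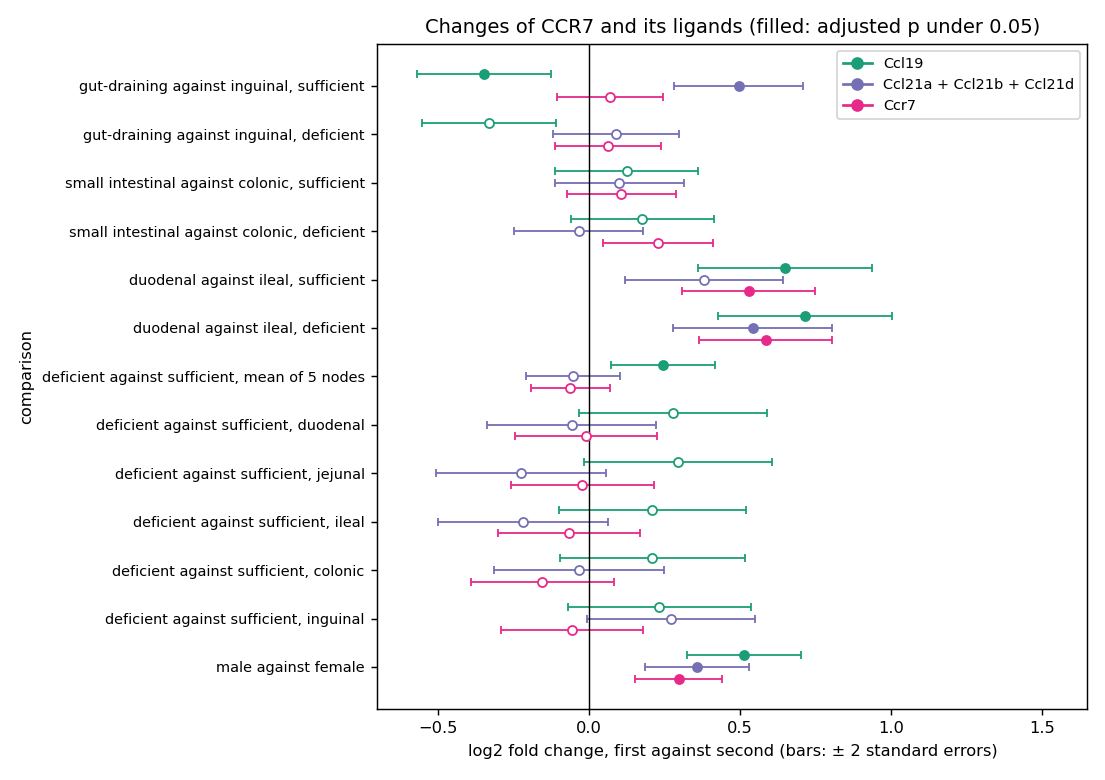
Log2 fold changes (x axis) of Ccl19, the Ccl21 sum and Ccr7 in 13 comparisons (y axis), each as first group against second, with bars of ± 2 standard errors and filled points for adjusted p under 0.05. Ccl19 and the Ccl21 sum lie on opposite sides of 0 for sufficient gut-draining against inguinal nodes (-0.35 and 0.50), and all 3 lie above 0 for duodenal against ileal nodes.

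Because depth cancels in a ratio within a library, the ratio of Ccl19 to summed Ccl21 was also read, as a description. Its log2 value was -2.42 ± 0.13 (SD, n = 5) in sufficient inguinal nodes and -3.27 ± 0.28 (SD, n = 20) in sufficient gut-draining nodes. The lowest inguinal library, at -2.58, lay above the highest gut-draining library, at -2.64, so the groups did not overlap. On the deficient diet the values were -2.55 ± 0.22 and -2.97 ± 0.20, and the ranges overlapped, from -2.92 to -2.34 and from -3.37 to -2.67. Within a diet, the ratio of Ccr7 to Ccl19 was lowest in inguinal nodes, at 0.26 ± 0.10 in sufficient and 0.08 ± 0.13 in deficient mice, beside 0.67 ± 0.20 and 0.48 ± 0.17 in gut-draining nodes.

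**Figure D3:**
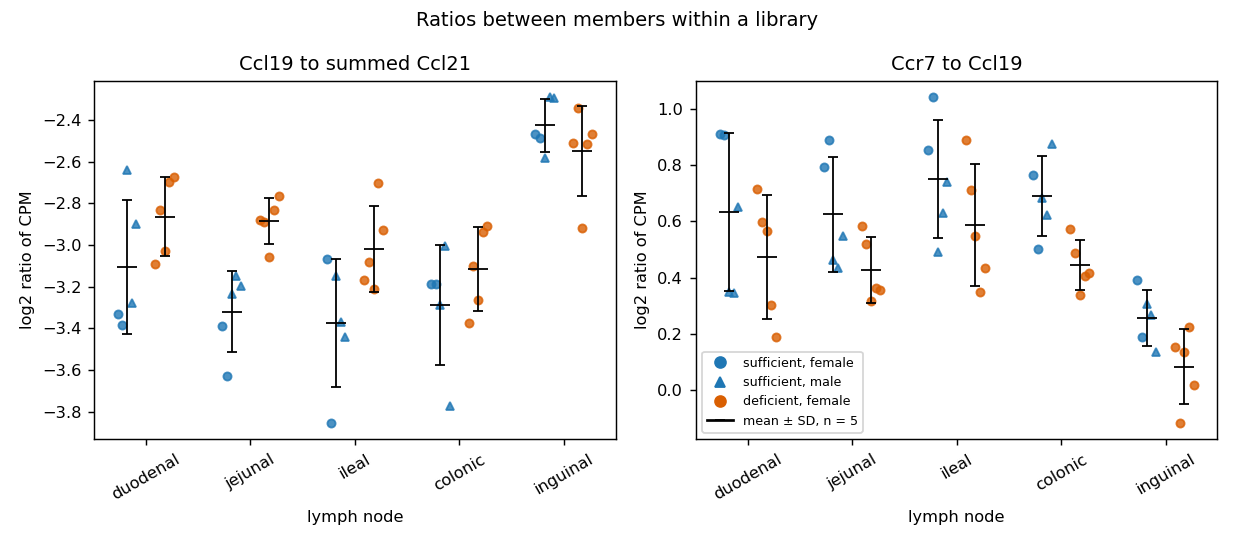
Log2 ratios of CPM within each library (y axis), Ccl19 to the Ccl21 sum on the left and Ccr7 to Ccl19 on the right, by lymph node (x axis), with 1 point per library and bars for mean ± SD of 5. Sufficient inguinal libraries lie between -2.58 and -2.29 on the left, above all sufficient gut-draining ones.

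The minor Ccl21 copies had another distribution from Ccl21a. Ccl21a made up 96.8 to 100% of the 3-copy sum in single libraries, with a mean of 98.0% in sufficient inguinal nodes and 99.8% in sufficient gut-draining nodes. Ccl21b ranged from 0 to 22.7 CPM over 50 libraries and Ccl21d from 0 to 34.1. In the fits of single copies, Ccl21b was below its inguinal level in gut-draining nodes by 3.14 ± 0.63 on the log2 scale in sufficient mice (adjusted p = 0.000255) and by 1.98 ± 0.60 in deficient mice (adjusted p = 0.0389). Ccl21d was lower by 3.18 ± 0.70 (adjusted p = 0.000788) and by 3.42 ± 0.65 (adjusted p = 0.000308). These folds depend on the prior count where libraries are at 0.

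How the counts were divided over the minor copies changed from library to library. In sufficient inguinal nodes Ccl21b stood at 13.2, 17.8, 11.1, 22.7 and 1.62 CPM. Ccl21d in the same nodes stood at 3.04, 3.83, 2.41, 4.12 and 34.1 CPM, and Ccl21f, which has the same coding sequence, at 0, 0, 29.2, 0 and 8.68. Where Ccl21b was low, in library 5, Ccl21d was high. Deficient inguinal nodes showed the same kind of exchange: Ccl21b was at 21.1, 0.622, 0.0157, 21.4 and 6.02 CPM and Ccl21d at 3.87, 34.1, 19.6, 4.67 and 1.08. The calls for single copies moved accordingly. Ccl21d lost its call without sufficient libraries numbered 5 (-2.16, adjusted p = 0.0697) and, on the deficient diet, without number 2 (-2.45, adjusted p = 0.0588) or without the libraries low in Gm19220 (-2.21, adjusted p = 0.376). Its sufficient call was also lost with female mice only (-3.45, adjusted p = 0.176). Ccl21b missed the threshold on the sufficient diet in limma-voom (-2.98, adjusted p = 0.0608). Ccl21b lost its deficient call in DESeq2 (-1.99, adjusted p = 0.231) and limma-voom (-0.87, adjusted p = 0.794), and without deficient libraries numbered 1 (-1.68, adjusted p = 0.262), 4 (-1.50, adjusted p = 0.33) or 5 (-1.96, adjusted p = 0.0825) or sufficient libraries numbered 4 (-1.98, adjusted p = 0.0558). It was also lost with the replicate block (-1.62, adjusted p = 0.132), with duplicateCorrelation on diet and number (-0.86, adjusted p = 0.738), with deficient libraries alone (-1.98, adjusted p = 0.0617) and without the libraries over 1% pancreas (-1.87, adjusted p = 0.0835).

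Summing Ccl21b, Ccl21d, Ccl21e and Ccl21f removes that division, and this sum, formed after the values were seen and given with no test, was high in inguinal nodes. Sufficient inguinal nodes held 29.4, 39.4, 53.9, 49.6 and 46.0 CPM, a mean of 43.7 ± 9.57 (SD, n = 5). The 20 sufficient gut-draining libraries held 3.55 to 17.7 CPM and did not overlap them. Group means in gut-draining nodes were 7.19 ± 2.50 in duodenal, 8.49 ± 3.00 in jejunal, 4.99 ± 1.13 in ileal and 10.5 ± 5.02 in colonic nodes (SD, n = 5 each). Deficient inguinal nodes held 46.0, 35.4, 54.6, 47.5 and 13.1 CPM, beside 2.15 to 23.8 in deficient gut-draining nodes. Number 5 alone fell within the gut-draining range, and the other four lay above it. As a share of all 5 copies, the minor copies took 3.70 ± 0.68% in sufficient inguinal and 0.469 ± 0.201% in sufficient gut-draining nodes, and 3.15 ± 1.14% and 0.612 ± 0.310% on the deficient diet. Ccl21a went the other way on the sufficient diet, at 1132 ± 102 CPM in inguinal nodes (SD, n = 5), below the 4 gut-draining group means of 1414 to 1835.

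**Figure D4:**
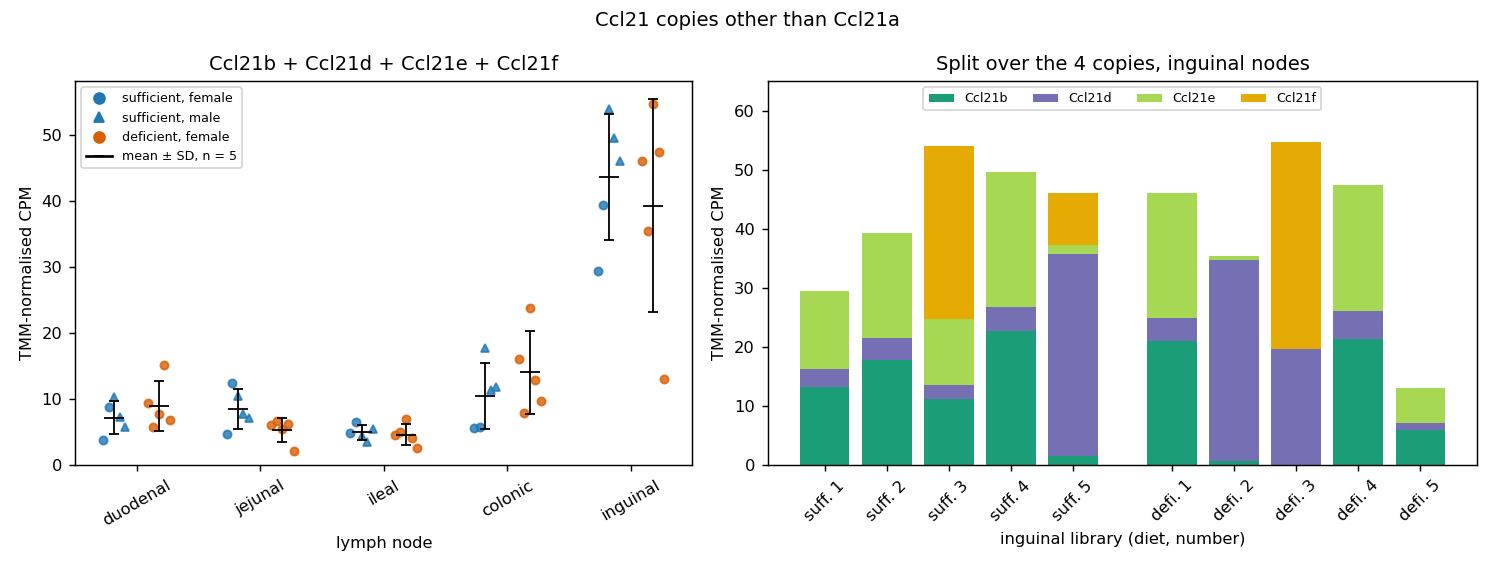
Left, the summed CPM (y axis) of Ccl21b, Ccl21d, Ccl21e and Ccl21f by lymph node (x axis), with 1 point per library and bars for mean ± SD of 5. Right, stacked bars give the CPM of each of these copies in the 10 inguinal libraries, where sufficient number 5 and deficient number 2 are mostly Ccl21d and the others mostly Ccl21b and Ccl21e or Ccl21f.

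Small intestinal nodes were also set against colonic nodes. In edgeR's test 0 of 5 members passed on the sufficient diet, where 3.91% of all genes did, and 0 on the deficient diet, where 1.8% did. At an unadjusted p under 0.05 there was 1 member on each diet, Ccl21b on the sufficient and Ccr7 on the deficient diet, and DESeq2 and limma-voom called 0 on both. The differences on the log2 scale were 0.12 ± 0.12 and 0.18 ± 0.12 for Ccl19, 0.10 ± 0.11 and -0.03 ± 0.11 for the Ccl21 sum, and 0.11 ± 0.09 and 0.23 ± 0.09 for Ccr7, sufficient first.

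The diet comparison depended on how sex was treated. Averaged over the 5 nodes with sex as a term, Ccl19 was 1.18-fold higher in deficient mice (0.24 ± 0.09 on the log2 scale, adjusted p = 0.039, edgeR). The Ccl21 sum differed by -0.05 ± 0.08 (adjusted p = 0.7) and Ccr7 by -0.06 ± 0.07 (adjusted p = 0.565). Thus 1 of 5 members was higher, against 10.9% of all genes, and 0 were lower, against 8.67%. The plain means of all 25 libraries a diet ran the other way for Ccl19, at 174 CPM in deficient and 185 in sufficient mice. By sex, sufficient females had a mean of 147 CPM (n = 10), sufficient males 209 (n = 15) and deficient females 174 (n = 25). With no sex term the value for Ccl19 was -0.09 (adjusted p = 0.454), and those for the Ccl21 sum and Ccr7 were -0.28 (adjusted p = 0.00166) and -0.25 (adjusted p = 0.000867). With female mice only, Ccl19 was higher by 0.25 (adjusted p = 0.0236), the Ccl21 sum differed by -0.05 (adjusted p = 0.744) and Ccr7 by -0.06 (adjusted p = 0.616). This refit is not a separate check. As every male was on the sufficient diet, the fit with sex as a term already set deficient females against sufficient females. On the sufficient diet, those are the libraries numbered 1 and 2 only.

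The call for Ccl19 by diet was easily lost. The fit took the nodes of a library number as independent, and with duplicateCorrelation on diet and number, which allows them to be correlated, the value was 0.25 (adjusted p = 0.119). Over 10 fits that each left out 1 library number of 1 diet, the value ran from 0.20 to 0.27 and the call was lost in 6. These were the fits without sufficient libraries numbered 1 (0.22, adjusted p = 0.224), 2 (0.26, adjusted p = 0.0976) or 4 (0.24, adjusted p = 0.051) and deficient libraries numbered 1 (0.24, adjusted p = 0.0772), 3 (0.24, adjusted p = 0.0521) or 4 (0.20, adjusted p = 0.116). Without the 10 libraries low in Gm19220 it was 0.27 (adjusted p = 0.0646), and without the 6 over 1% pancreas 0.22 (adjusted p = 0.0869). In every node the fitted difference of Ccl19 was positive, from 0.21 ± 0.16 in ileal to 0.29 ± 0.16 in jejunal nodes. The Ccl21 sum ranged from -0.23 ± 0.14 in jejunal to 0.27 ± 0.14 in inguinal nodes. Both sets of values rest on a sex term shared by all nodes. Fitted within a node, the male to female difference ran from 0.12 in inguinal to 0.80 in duodenal nodes for Ccl19. For the Ccl21 sum it ran from 0.0225 in inguinal to 0.50 in ileal nodes. With sexes pooled, the mean of Ccl19 was lower in deficient than in sufficient mice in every node. Sufficient inguinal females held 179.8 and 228 CPM, beside a deficient mean of 206.

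Taken node by node, the diet comparison called 0 of 5 members anywhere in edgeR, beside 10.3% of all genes in duodenal, 4.61% in jejunal, 5.81% in ileal, 2.25% in colonic and 0.852% in inguinal nodes. At an unadjusted p under 0.05 there was 1, Ccl21d in duodenal nodes, which DESeq2 also called (adjusted p = 0.0134) and limma-voom did not. That value rests on deficient duodenal library 4, at 15.2 CPM beside 0.613 to 0.952 in the other four. Tests of whether the diet acted differently between regions called 0 members for gut-draining against inguinal nodes (0.935% of all genes), small intestinal against colonic nodes (0.083%) and duodenal against ileal nodes (0.232%), and DESeq2 and limma-voom called 0 as well. At an unadjusted p under 0.05 there were 1, 0 and 1 in that order, Ccl21a and Ccl21d.

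Around the members, a number of listed genes passed in the diet comparison, averaged over nodes and with sex as a term. Of 16 genes of CCR7 signalling 8 were higher and 3 lower in deficient mice. Among the higher were Pik3cg (0.38 ± 0.06) and Gnai2 (0.22 ± 0.04), a kinase and a G protein used by chemokine receptors. Among the lower were Gnai3 (-0.20 ± 0.04) and Grk3 (-0.39 ± 0.10). Leukocyte and interferon lists also held genes that passed in the same comparison: 6 of 12 B cell genes were higher and 1 lower, 5 of 14 T cell genes higher and 0 lower, 5 of 12 naive T cell genes higher and 3 lower, and 4 of 10 interferon response genes higher and 0 lower. Migratory dendritic cell genes were divided, with 2 of 13 higher and 3 lower. So were T zone reticular genes, with 3 of 18 higher and 2 lower. The part of these lists in the counts of signalling genes was not tested. Of 16 other homing receptors 5 were higher and 2 lower. Ccr9, the gut homing receptor whose expression depends on retinoic acid, was lower by 0.75 ± 0.08 and Cxcr3 was higher by 0.65 ± 0.10. Lymphatic endothelial genes were lower in 4 of 11 cases, with Prox1, their lineage factor, at -0.72 ± 0.09. Lta and Ltb were higher by 0.41 ± 0.08 and 0.28 ± 0.05.

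Males and females could be compared on the sufficient diet only. The test took those libraries as independent, though they carry only 2 female and 3 male library numbers, each with 5 nodes. Ccl19 was 1.43-fold higher in males (0.51 ± 0.09 on the log2 scale, adjusted p = 0.000143, edgeR), the Ccl21 sum 1.28-fold higher (0.36 ± 0.09, adjusted p = 0.00183) and Ccr7 1.23-fold higher (0.30 ± 0.07, adjusted p = 0.00197). Of the 5 members 3 passed (Ccl19, Ccl21a and Ccr7), where 26.8% of all genes did. In duodenal, jejunal and ileal nodes all 3 males had more Ccl19 than both females, while in colonic and inguinal nodes the sexes overlapped. Fitted within 1 node, the male to female difference of Ccl19 was 0.80 in duodenal, 0.73 in jejunal, 0.63 in ileal, 0.28 in colonic and 0.12 in inguinal nodes, and none of these passed (adjusted p from 0.0946 to 0.744). The Ccl21 sum lost its call without sufficient libraries numbered 1 (0.24, adjusted p = 0.187), as did Ccr7 (0.30, adjusted p = 0.0516). Of the 21 pancreas genes 20 were higher in males, with a median of 4.65 on the log2 scale, and 4 of 10 high endothelial genes were lower, with Glycam1 at -2.08 ± 0.15. Their part in the result was not tested.

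Across the 50 libraries the members varied together to different degrees. Pearson's r of log2(CPM + 1) was 0.77 between the Ccl21 sum and Ccr7, 0.75 between Ccl19 and Ccr7 and 0.49 between Ccl19 and the Ccl21 sum, given as a description because the points share nodes, diets and sexes. Over the 10 group means the same correlations were 0.81, 0.70 and 0.33. Among 12224 other genes with a mean of at least 5 CPM, the 3 most like Ccl19 were Epsti1 (r = 0.82), the T cell chemokine gene Ccl5 (0.80) and Tnfrsf18 (0.80), which encodes a receptor of regulatory T cells. The 3 most like the Ccl21 sum were Rgs10 (0.82), the protease inhibitor gene Cst3 (0.81) and Tmsb4x (0.81), which encodes an actin-binding peptide. Those most like Ccr7 were Id2 (0.89), a transcriptional regulator of innate lymphoid and dendritic cells, Epsti1 (0.82) and Glipr2 (0.81).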

How the data were processed

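Whole lymph node RNA was sequenced in 50 libraries. The authors deposited 1 table of estimated counts per gene. Per the submitters' processing notes, kallisto, edgeR and limma were used, and no version or role is given in the sources used here. Among nonzero deposited values, 0.122% were whole to within 1e-06, and 379 entries with no gene name (0.379% of counts) were left out. Columns of the deficient diet are marked 3rd, which no label explains, and were assigned because all others are named control. Replicates in a group correlated at 0.939 or more and none were identical. PCR duplicates cannot be told from separate molecules in counts.

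Estimated counts were rounded to whole numbers, filtered with filterByExpr, scaled with TMM (factors 0.550 to 1.14) and fitted with edgeR 4.0.16 in R 4.3.3, with 1 mean per diet and node plus sex. All 50 libraries entered 1 fit so that groups share the estimate of spread. The quasi-likelihood test was adjusted by Benjamini-Hochberg over 18077 genes, with a threshold of 0.05. Standard errors were taken from the fold change and its F value. The script was tested on simulated data. Ccl21a, Ccl21b and Ccl21d were also replaced by their sum before rounding. Members and gene lists were chosen with earlier results of these data known. Genes named from a list are among the 4 with the smallest adjusted p in the comparison described, and the 3 genes most like a member were taken by Pearson's r. Ccl21e, Ccl21f and their sum with the other copies were chosen after values were seen. Alternatives were other scalings, filters, tools (DESeq2 1.42.0, limma 3.58.1), sex terms, replicate blocks, sums of copies and sets of libraries.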

Additional observations from a re-analysis of the deposited data

Results flagged for a closer look

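In a check for a library far from the others of its group, run over 60 groups of 5 (6 quantities in 10 groups, where chance alone gives about 1 in 20), 5 were found, all of them Ccl21d. Ccl21d stood at 34.1 CPM in sufficient inguinal 5, with the next library at 4.12, and at 15.2 CPM in deficient duodenal 4, with the next at 0.952. It stood at 7.12 CPM in sufficient jejunal 5 (next 1.10), 4.92 in sufficient ileal 1 (next 0.432) and 5.46 in deficient jejunal 3 (next 0.631). In these 5 libraries Ccl21b, which has the same coding sequence, was at 1.62, 1.72e-05, 2.11e-08, 0 and 0 CPM in the same order.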

How the results depend on the processing

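Of 687 refits of Ccl19, the Ccl21 sum and Ccr7 under alternatives other than leaving out a library number, 648 stayed on the same side of the threshold as the value reported, 24 lost a call, 14 gained one and 1 reversed; 30 of the 648 changed sign where neither value passed. The reversal was Ccl19 by diet with no sex term (-0.0853), where the Ccl21 sum (-0.28) and Ccr7 (-0.25) gained a call and Ccl19 of sufficient gut-draining against inguinal nodes lost it (-0.31, adjusted p = 0.15). Ccl19 by diet also lost its call with duplicateCorrelation (0.25), without libraries over 1% pancreas (0.22), without the pair over 20% (0.22, chosen after seeing the data), without libraries under 3% Gm19220 (0.27) and with Ccl19 pseudogenes added (0.22, chosen after seeing the data). With female mice only, sufficient duodenal against ileal nodes gave 0.54 for Ccl19 and 0.51 for Ccr7, and gut-draining against inguinal nodes 0.27 for the Ccl21 sum, none called, with fewer libraries.

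Ccl19 of deficient gut-draining against inguinal nodes gained a call in DESeq2 (-0.33), duplicateCorrelation (-0.34), the replicate block (-0.34), deficient libraries alone (-0.33), without the pair over 20% pancreas (-0.35) and with pseudogenes (-0.35). The Ccl21 sum of sufficient duodenal against ileal nodes gained one in DESeq2 (0.39), duplicateCorrelation (0.38), the replicate block (0.38), sufficient libraries alone (0.38), and without libraries over 1% (0.47) or over 20% pancreas (0.45). Male against female, fitted in single nodes with fewer libraries, lost the call in each: 0.80, 0.73, 0.63, 0.28 and 0.12 for Ccl19, 0.38, 0.42, 0.50, 0.43 and 0.0225 for the Ccl21 sum and 0.33, 0.37, 0.31, 0.37 and 0.0666 for Ccr7 in duodenal, jejunal, ileal, colonic and inguinal nodes. Why calls were lost or gained in any of these refits was not tested.

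Leaving out each library number of each diet in turn gave, for results whose call changed, 0.20 to 0.27 (Ccl19 by diet), -0.41 to -0.26 and -0.48 to -0.22 (Ccl19, gut-draining against inguinal, deficient and sufficient), 0.43 to 0.66 and 0.30 to 0.48 (Ccl21 sum, duodenal against ileal, deficient and sufficient), 0.24 to 0.46 (Ccl21 sum by sex) and 0.26 to 0.32 (Ccr7 by sex). The Ccl21 sum of sufficient duodenal against ileal nodes gained its call without sufficient libraries numbered 5 (0.48) or deficient libraries numbered 3 (0.38) or 5 (0.38), and Ccl19 of deficient gut-draining against inguinal nodes without deficient libraries numbered 4 (-0.41) or sufficient libraries numbered 2 (-0.33) or 3 (-0.34).

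Library numbers were not taken to pair libraries, because the labels do not tie nodes to mice. Of 100 pairs of same-numbered nodes, 56 deviated together at r over 0.1, with a median r of 0.111. Among the 5 numbers of a diet, 26 of 50 libraries correlated best with their own. These values do not show that libraries of 1 number are independent. The replicate block moved 2 of 9 counts over all genes by more than 1.5 times, both upward, and for Ccl19, the Ccl21 sum and Ccr7 changed no other call than those given. Over all genes, female mice only lowered 11 of 15 counts by more than 1.5 times (gut-draining against inguinal nodes, sufficient: 3101 to 1136), and sufficient duodenal against ileal nodes from 1485 to 136. No sex term raised that of the diet from 3532 to 6052, and duplicateCorrelation lowered it to 1832. Leaving out libraries over 1% pancreas lowered deficient duodenal against ileal nodes from 1029 to 292, and leaving out those under 3% Gm19220 lowered deficient gut-draining against inguinal nodes from 1044 to 447. Without TMM, the 30 group means of CPM all moved by less than 1 SD. By Spearman's rho, Plscr1 replaced Tmsb4x beside the Ccl21 sum, and Rogdi and Nudt17 replaced Epsti1 and Glipr2 beside Ccr7. Minor Ccl21 copies, at a few CPM, are limited by depth and by shared reads.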
